A study of Mus musculus with 6 samples.

Results

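The nuclear genes for subunits of respiratory complexes II to V were examined in the proximal incisor of mice after deletion of Fgfr1 from Gli1+ cells. The set held 39 of the 19060 gene columns of the deposited count table, chosen by name: 4 genes of complex II (Sdh), 9 of complex III (the Uqcr genes and Cyc1, cytochrome c1), 10 of complex IV (Cox), 15 of complex V (Atp5) and Cycs, cytochrome c. Bulk RNA sequencing compared 3 control samples (Fgfr1fl/fl, called wild type in the labels) with 3 mutant samples (Gli1-Cre;Fgfr1fl/fl). Both groups carried the floxed Fgfr1 alleles, their labelled age was 1 month, and incisors were taken 1 week after tamoxifen. The Gli1 driver, a CreER allele according to the study, acts in Gli1+ cells alone, so RNA from every other cell of the dissected tissue was read as well.

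Complexes II to V are the later steps of oxidative phosphorylation in the inner mitochondrial membrane. Complex II passes electrons from succinate to ubiquinone, complex III passes them on to cytochrome c, complex IV passes them to oxygen, and complex V, the ATP synthase, uses the proton gradient that complexes III and IV help to build. Mitochondrial DNA encodes cytochrome b of complex III, the catalytic core of complex IV and part of the membrane sector of complex V, and the genes described here encode the partners that are made from nuclear DNA and imported.

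Control samples held 31060222 to 32712448 counts and mutant samples 5276557 to 11819576. In the former 3.83 to 3.96% of genes were at 0, against 17.1 to 30.3% in the latter. Every mutant library was thus shallower than every control, and library differences that go with depth cannot be told apart from genotype. Pearson's r of log2 CPM was 0.944 to 0.973 between controls and 0.725 to 0.791 between mutants. Between a mutant and a control it was 0.689 to 0.818. Levels are given in CPM, counts relative to the upper-quartile scaled size of each library, and changes are log2 differences of mutant minus control from edgeR's quasi-likelihood test over 15826 genes, with its standard error (SE). All 39 members were tested, and the lowest count of any member in any sample was 481. Fgfr1 itself had 529, 924 and 434 CPM in control samples 1 to 3 and 148, 318 and 262 CPM in mutant samples 1 to 3, a log2 change of -1.37 (SE 0.40, unadjusted p = 0.00846, adjusted p = 0.0881 by edgeR) with every mutant below every control. Enamel genes were abundant. The 6 ameloblast markers summed to 85483, 97196 and 119799 CPM in the controls and 33971, 32631 and 71876 CPM in the mutants. These sums did not overlap, and Amelx and Ambn, both lower in every mutant, made up most of them. The mean log2 CPM of the 6 markers did overlap, at 11.2, 11.6 and 11.8 in the controls and 10.5, 10.8 and 11.5 in the mutants. Amtn was higher in every mutant, and none of the 6 was called at an adjusted p under 0.05. The part of enamel genes in the results below was not tested. Skeletal muscle was present unevenly: its 12 markers summed to 10.6, 3534 and 36.1 CPM in the controls and 8361, 204 and 1314 CPM in the mutants.

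Most of the nuclear subunits of complexes II to V were higher in the mutant samples. Of the 39 genes, 33 had a positive log2 change and 6 a negative one, with a median of 1.06 (range -0.59 to 2.38) beside a median of -0.04 over all genes tested. At an adjusted p under 0.05, 8 genes rose: Uqcrb and Uqcr10 of complex III, Cox6c and Cox7a2 of complex IV, and Atp5g3, Atp5j, Atp5k and Atp5l of complex V, where 3.72% of all genes tested were called higher. None was called lower by edgeR, DESeq2 or limma, and none was lower at an unadjusted p under 0.05 in any of these tests, where edgeR called 3.06% of all genes lower at the adjusted threshold. At the threshold of the study, an unadjusted p under 0.05 and more than 1.5-fold, 25 members were higher beside 10.9% of all genes, and 0 were lower beside 8.92%. In 27 members every mutant sample lay above every control sample, a separation that 14.1% of all genes tested showed in this direction, and in 0 members did every mutant lie below every control, beside 16.3%.

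The adjusted threshold fell on a flat stretch of the test. Another 8 members had an adjusted p between 0.05 and 0.08, and 658 of the 1074 genes called had an adjusted p between 0.045 and 0.05. The count of 8 moved with single libraries. It was 2, 3 and 0 without control 1, 2 and 3, beside 0.941, 1.19 and 0.474% of all genes called higher. Without mutant 1, 2 and 3 it was 3, 1 and 0, beside 2.73, 0.702 and 0.777% of all genes. Calls thus fell over all genes as well. At the threshold of the study 24 members were still higher without control 3, beside 7.88% of all genes. Without mutant 3 there were 21, beside 10.4%. DESeq2 called 22 members higher, beside 7.06% of all genes, and limma 19, beside 5.23%.

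**Figure D1:**
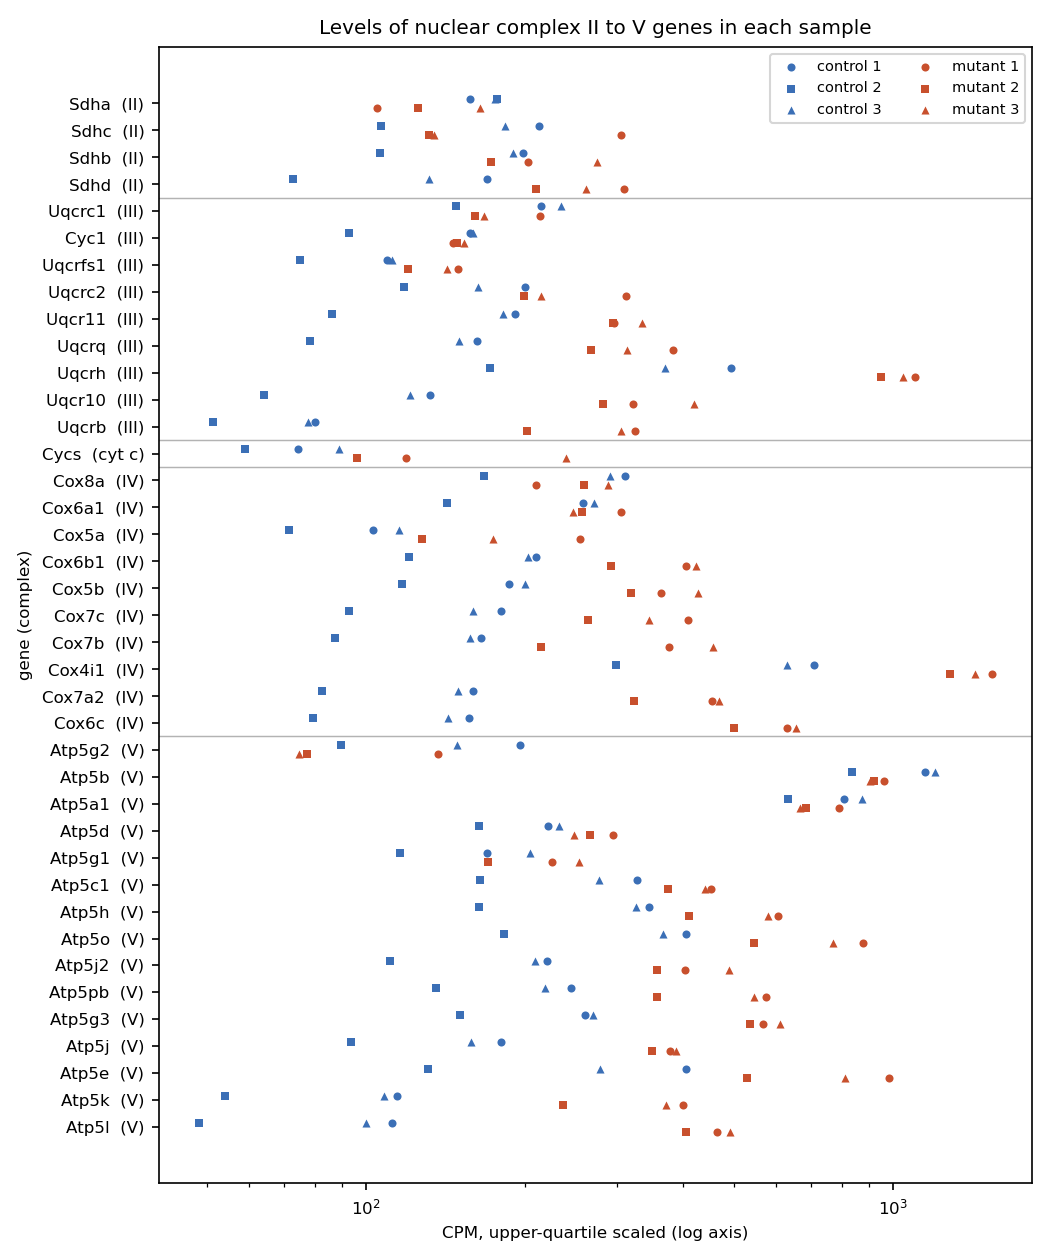
Level of each of the 39 genes in each sample in CPM after upper-quartile scaling (log axis), grouped by complex and ordered by log2 change within it. Blue symbols are the 3 controls and red symbols the 3 mutants, and control 2 (blue square) was the lowest control for 38 of the 39 genes.

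Samples of a group did not lie at the same level. Control 2 was the lowest control for 38 of the 39 members, against 42.9% of all genes tested, and mutant 2 was the lowest mutant for 31. The members together took 1.08, 0.673 and 1.02% of all counts in the 3 controls and 1.51, 1.33 and 1.46% in the 3 mutants. The summed shares did not overlap between the genotypes, and the control 2 share was the lowest of all samples. In bulk tissue, fewer cells of a type and less RNA per cell cannot be told apart.

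Complex II, which is also the succinate dehydrogenase of the citric acid cycle, changed least by its median, 0.29 over 4 genes, with 1 gene past the threshold of the study. That median was 0.05 without control 2, 0.09 without mutant 1, 0.47 without control 1, 0.45 without mutant 2 and 0.02 with scaling by total counts. After the length and GC correction given below, complex II no longer changed least. Its median was then 0.15, beside 0.12 for complex III, -0.09 for complex IV and 0.26 for complex V. Sdhd, a membrane anchor, had 169.9, 72.7 and 131.7 CPM in the controls and 309.5, 210.4 and 261.5 CPM in the mutants. Every mutant was above every control, and the log2 change was 1.06 (SE 0.34, adjusted p = 0.119 by edgeR). Sdha, the catalytic flavoprotein, had 157.5, 177.3 and 175.8 CPM in the controls and 105.0, 125.4 and 164.6 CPM in the mutants. Its groups overlapped only through mutant 3 and control 1, its log2 change was -0.37 (SE 0.24, adjusted p = 0.468), and it was the only member whose lowest control was not control 2. Sdhb, the iron-sulfur subunit, had a log2 change of 0.40 (SE 0.31) and Sdhc, the other anchor, one of 0.18 (SE 0.41), and neither passed either threshold. The Sdhc value rested on mutant 1, without which it was -0.35, and it was -0.09 with scaling by total counts.

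In complex III the small accessory subunits were higher and the large and redox subunits moved less. The grouping into these classes follows their known place in the enzyme and was made after the values had been seen. The classes also differ in transcript length, with medians of 535 bases for the small and 1586.5 bases for the large and redox subunits. After the length and GC correction given below, their median log2 changes were 0.30 and 0.01, and Uqcrb was at 0.02. All 5 small subunits (Uqcrb, Uqcrq, Uqcrh, Uqcr10 and Uqcr11) were higher at the threshold of the study, with a median log2 change of 1.58. Uqcrb, a ubiquinone-binding protein, had 79.9, 51.3 and 77.6 CPM in the controls and 324.8, 202.4 and 305.4 CPM in the mutants. The lowest mutant was more than any control, and the log2 change was 1.99 (SE 0.30, adjusted p = 0.0150), a 3.98-fold rise. Uqcr10 had 132.0, 64.1 and 121.2 CPM in the controls and 320.8, 282 and 419.6 CPM in the mutants, again without overlap, with a log2 change of 1.69 (SE 0.33, adjusted p = 0.0424). Uqcrh, the hinge protein that docks cytochrome c1 and cytochrome c, had a log2 change of 1.58 (SE 0.40, adjusted p = 0.0530) and Uqcrq one of 1.30 (SE 0.33, adjusted p = 0.0542).

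The 4 large or redox subunits of complex III had a median log2 change of 0.30, and none passed the threshold of the study. Uqcrc1, a core protein, had 214.8, 148.2 and 234.6 CPM in the controls and 213.7, 160.9 and 167.4 CPM in the mutants. All mutants lay inside the range of the controls and the log2 change was -0.14 (SE 0.26). Cyc1, the cytochrome c1 that hands electrons to cytochrome c, had a log2 change of 0.13 (SE 0.26), Uqcrfs1, the Rieske iron-sulfur protein, 0.48 (SE 0.24) and Uqcrc2, the other core protein, 0.59 (SE 0.29). Of these 4 genes only Uqcrfs1 had its mutants apart from its controls, and Cyc1 was at -0.12 with scaling by total counts. Cycs, the mobile carrier between complexes III and IV, had 74.4, 59.0 and 88.7 CPM in the controls and 119.2, 96.1 and 240.2 CPM in the mutants. The groups did not overlap, mutant 3 was far above the other mutants, and the log2 change was 1.04 (SE 0.37, adjusted p = 0.157), which was 0.53 without mutant 3.

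Complex IV had 8 of its 10 nuclear genes higher at the threshold of the study and 2 called at the adjusted threshold, with a median log2 change of 1.18. Cox6c, a small membrane subunit, had 156.8, 79.4 and 143.3 CPM in the controls and 628.6, 499.0 and 654.4 CPM in the mutants. The mutants were far above all controls, and the log2 change was 2.23 (SE 0.33, adjusted p = 0.0139), or 4.69-fold. Cox7a2, the form of subunit VIIa found in most tissues, had 159.6, 82.5 and 149.7 CPM in the controls and 452.9, 322.4 and 467.8 CPM in the mutants, with a log2 change of 1.67 (SE 0.32, adjusted p = 0.0419) and no overlap. Cox8a, the common form of subunit VIII, had 310.4, 167.2 and 290.9 CPM in the controls and 210.0, 258.9 and 288.5 CPM in the mutants. All mutants lay inside the range of the controls, and the log2 change was -0.02 (SE 0.30). Cox6a1 was the other gene that passed no threshold, at 0.27 (SE 0.30). The remaining genes were Cox5a at 0.94, Cox6b1 at 1.07, Cox5b at 1.14, Cox7c at 1.23, Cox7b at 1.35 and Cox4i1, which binds ATP as a regulatory subunit, at 1.38, with adjusted p between 0.0528 and 0.139.

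Complex V had 10 of 15 genes higher at the threshold of the study and 4 at the adjusted threshold, with a median log2 change of 1.20. The 3 small membrane subunits that take part in dimer formation had the highest median of its classes, 1.87. Atp5l (subunit g) had 112.1, 48.2 and 100.2 CPM in the controls and 463.1, 404.7 and 490.3 CPM in the mutants. This was the highest log2 change of the 39 genes, 2.38 (SE 0.35, adjusted p = 0.0147), or 5.21-fold, with the groups far apart. Atp5k (subunit e) had 114.4, 54.0 and 108.1 CPM in the controls and 399.6, 236.9 and 372.0 CPM in the mutants, with a log2 change of 1.87 (SE 0.36, adjusted p = 0.0414). Atp5j2 (subunit f) had a log2 change of 1.21 (SE 0.32, adjusted p = 0.0651).

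The peripheral stalk, which holds the catalytic head still against the turning rotor, had a median log2 change of 1.25, and all 4 of its genes were past the threshold of the study with their groups apart. Atp5j (coupling factor 6) had 180.5, 93.6 and 158.4 CPM in the controls and 376.9, 348.9 and 388.6 CPM in the mutants. Its mutants were close to each other and all above the controls, with a log2 change of 1.37 (SE 0.29, adjusted p = 0.0464). Atp5pb (subunit b, also named Atp5f1) was at 1.30 (SE 0.32, adjusted p = 0.0509), Atp5o (the oligomycin sensitivity protein) at 1.20 (SE 0.36) and Atp5h (subunit d) at 0.94 (SE 0.34).

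The catalytic head was split. Atp5b and Atp5a1, the beta and alpha subunits that form the catalytic ring, had log2 changes of -0.19 (SE 0.27) and -0.11 (SE 0.26), and their groups overlapped. Atp5d (delta) was at 0.39 (SE 0.24), Atp5c1 (gamma, the shaft of the rotor) at 0.72 (SE 0.30) and Atp5e (epsilon) at 1.51 (SE 0.44, adjusted p = 0.0902). The CPM ratio of Atp5l to Atp5a1 was 0.138, 0.0761 and 0.115 in the controls and 0.585, 0.592 and 0.737 in the mutants. This pair joins the gene with the highest change of the 39 to one with a negative change, so the ratio adds no test of its own. Their transcripts have 544 and 2471 bases. After the length and GC correction given below, their log2 changes were 0.96 and -0.02.

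**Figure D2:**
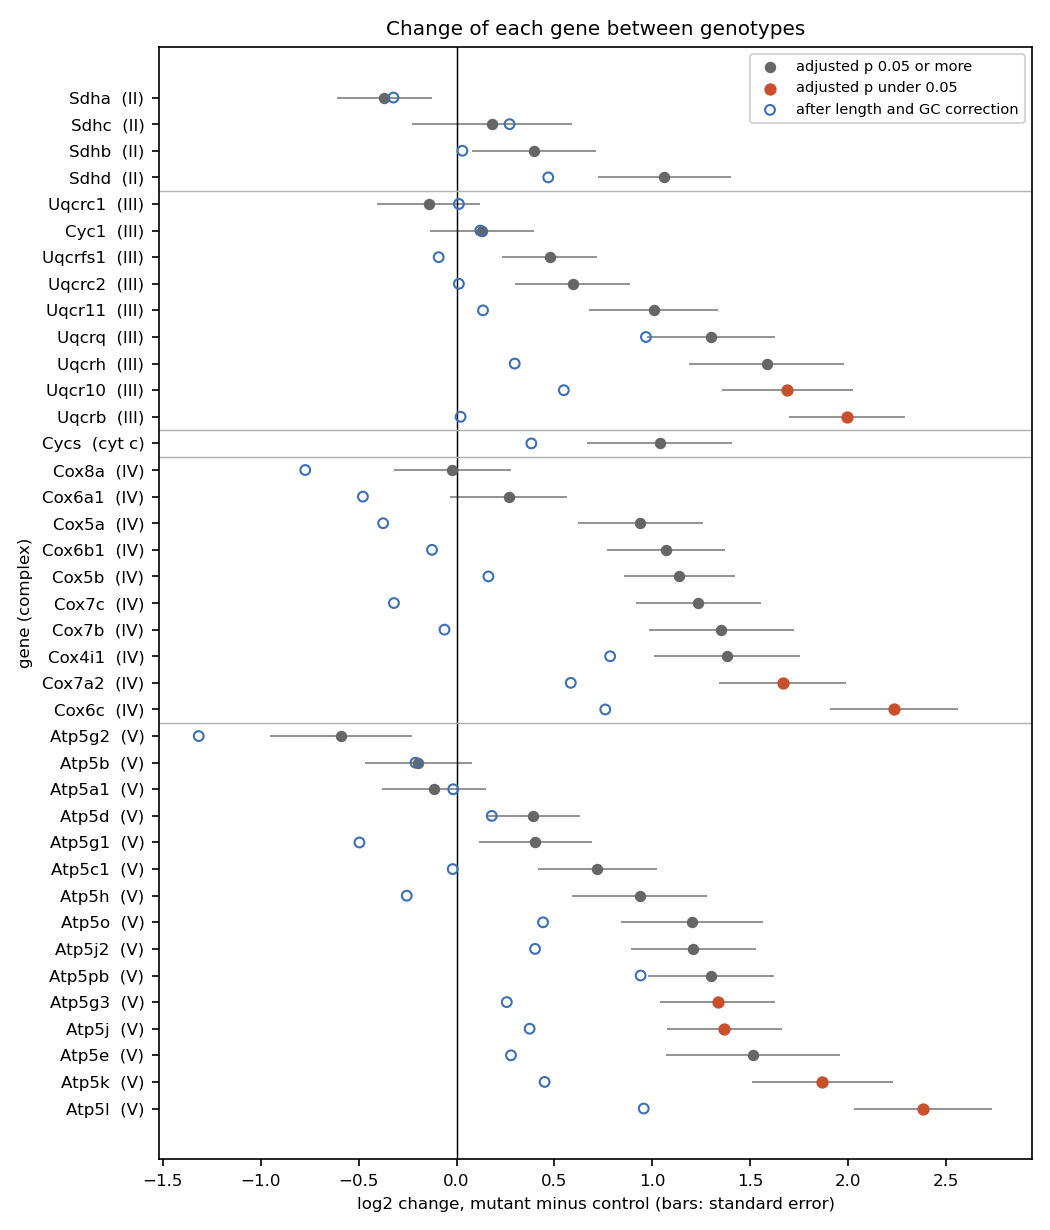
Log2 change of each gene, mutant minus control, from edgeR with upper-quartile scaling (filled points, bars are standard errors, n = 3 against 3) and after correction for transcript length and GC content (open circles). Red points are the 8 genes with an adjusted p under 0.05, and most open circles lie nearer to 0 than their filled point.

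The genes Atp5g1, Atp5g2 and Atp5g3 encode the same mature subunit c of the rotor ring with different import sequences, and they moved unequally. Atp5g3 had 260.2, 151.2 and 269.7 CPM in the controls and 568.3, 535.8 and 612.1 CPM in the mutants. Its groups were apart, with a log2 change of 1.33 (SE 0.29, adjusted p = 0.0464). Atp5g2 had 196.2, 89.6 and 148.8 CPM in the controls and 137.3, 77.2 and 74.8 CPM in the mutants. The groups overlapped, and the log2 change, -0.59 (SE 0.36, adjusted p = 0.431), was the lowest of the 39 genes. Atp5g1 had 169.8, 116.3 and 204.6 CPM in the controls and 225.2, 170.3 and 253.2 CPM in the mutants, an overlapping pair of groups at 0.40 (SE 0.29).

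The makeup of the subunit c messages differed between the genotypes. Atp5g3 supplied 41.6, 42.3 and 43.3% of the summed CPM of the 3 genes in the controls and 61.1, 68.4 and 65.1% in the mutants. Atp5g2 supplied 31.3, 25.1 and 23.9% in the controls and 14.7, 9.85 and 7.95% in the mutants. For both genes the shares of the genotypes were apart, while the Atp5g1 share was 27.1 to 32.8% in the controls and 21.7 to 26.9% in the mutants, a narrow gap. The summed level of the 3 genes was 626, 357 and 623 CPM in the controls and 931, 783 and 940 CPM in the mutants.

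**Figure D3:**
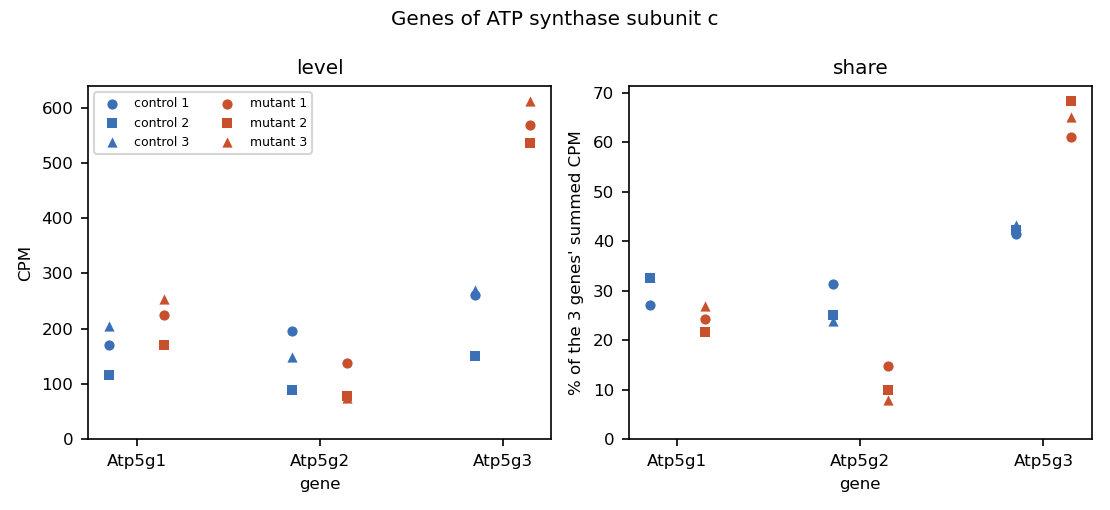
Level in CPM (left) and share of the summed CPM (right) of the 3 genes for subunit c in each sample, with controls in blue and mutants in red. The Atp5g3 share was 41.6 to 43.3% in the controls and 61.1 to 68.4% in the mutants, and the Atp5g2 share was lower in every mutant than in every control.

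The complexes were compared within each sample by the mean log2 CPM of their genes. Complex II had 7.52, 6.78 and 7.4 in the controls and 7.73, 7.29 and 7.64 in the mutants, and its groups overlapped. Complex III had 7.41, 6.52 and 7.31 against 8.22, 7.90 and 8.14, and its groups were apart. Complex IV stood at 7.72, 6.84 and 7.68 against 8.71, 8.29 and 8.70, and complex V at 8.11, 7.20 and 8.01 against 8.90, 8.49 and 8.80, both without overlap. Relative to complex II the other complexes stood higher in each mutant than in each control. The group means differed by 0.68 for complex III, 0.84 for complex IV and 0.63 for complex V on the log2 scale. Complex III lay below complex II in the controls, at -0.106, -0.260 and -0.085, and above it in every mutant. Among complexes III, IV and V the distances moved by 0.15 (IV above III), -0.05 (V above III) and -0.20 (V above IV), with the genotypes apart each time. The first and the last of these turned sign after the length and GC correction given below. The differences relative to complex II were then 0.13 for complex III, -0.09 for complex IV and 0.04 for complex V, with the groups overlapping. With 3 samples a group an exact permutation test of such a difference cannot give a p under 0.1, and none is given.

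**Figure D4:**
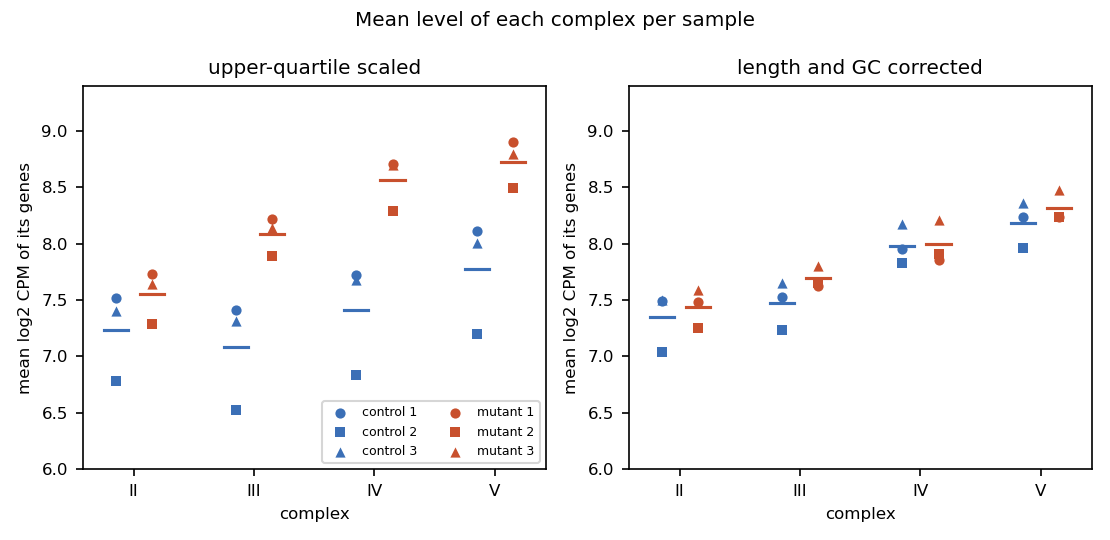
Mean log2 CPM of the genes of each complex in each sample, after upper-quartile scaling (left) and after correction for transcript length and GC content (right), with controls in blue, mutants in red and horizontal lines at the group means. On the left the groups of complexes III, IV and V are apart and those of complex II overlap, and on the right all 4 complexes overlap.

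Levels within a complex, compared as CPM per kilobase of transcript, were more uneven in the mutants for complexes II, III and V. In complex III, Uqcrh was the highest gene in every sample, and the ratio of the highest to the lowest gene was 6.11 to 11.2 in the controls and 18.9 to 20.9 in the mutants. In complex V the ratio was 4.85 to 6.31 in the controls and 11.9 to 18.9 in the mutants, and Atp5pb was the lowest gene in each control and Atp5g2 in each mutant. In complex IV, Cox4i1 was the highest in every sample and the ratio was 4.58 to 5.95 against 5.52 to 8.73, with overlap. In complex II the ratio was 2.76 to 3.20 against 4.11 to 6.94. These order statements use 1 transcript per gene, and the transcript used by the tissue was not measured. Nor were the levels corrected for the sample trends with length and GC content given below. In complex III, Uqcrh, Cyc1 and Uqcrfs1 changed by 1.58, 0.13 and 0.48 before that correction and by 0.30, 0.12 and -0.09 after it. In complex V, Atp5pb and Atp5g2 were at 0.94 and -1.32 after it.

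The change of a member moved with the length of its transcript. Pearson's r between log2 length and log2 change was -0.55 across the 39 genes, which share their libraries and are not independent replicates, and -0.17 across 13798 protein-coding genes. The 12 members under 600 bases had a median log2 change of 1.55, and 262 other protein-coding genes of that length had one of 1.09. From 600 to 1000 bases the medians were 1.17 for 12 members and 0.63 for 854 other genes, and from 1000 to 2000 bases 0.59 for 11 members and 0.11 for 3269 other genes. From 2000 to 4000 bases they were 0.03 for 4 members and -0.23 for 5672 other genes. Within each length class the members' median was above that of the other genes. Single controls were tied to length as well. Between length and the level of the members in 1 control relative to the other controls, r was -0.49 for control 1, 0.62 for control 2 and -0.44 for control 3. Each control was set against the mean of the others, so these values depend on each other and are not separate observations.

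GC content moved with it too. Of members under 1000 bases, the 7 with a GC content below 50% had a median log2 change of 1.58 and the 9 between 50 and 55% one of 1.33, and all of these were past the threshold of the study, beside 47.4 and 31.4% of the other genes of the same length and GC class. The 8 members of 55% or more, among them Cox8a, Cox6a1, Atp5g1 and Atp5g2, had a median of 0.40 beside 0.50 for 416 other genes.

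**Figure D5:**
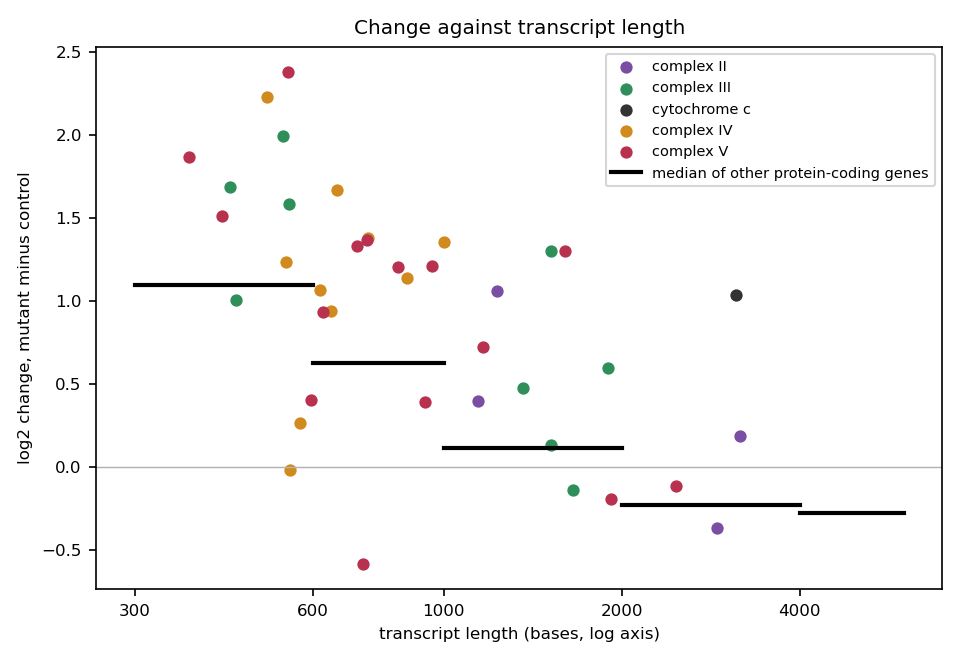
Log2 change of each of the 39 genes against transcript length in bases (log axis), coloured by complex, with black lines at the median of the other protein-coding genes in each length class. Those medians run from 1.09 below 600 bases to -0.28 above 4000 bases, and the longest class has no upper bound although its line ends.

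When each sample was corrected for its trend with length and GC content, fitted on other protein-coding genes, the median log2 change of the members was 0.14, beside -0.12 over all genes tested, and 25 of 39 were positive. By complex the medians were 0.15 for complex II, 0.12 for complex III, -0.09 for complex IV and 0.26 for complex V, and Cycs was at 0.38. The small subunits of complex III had a median of 0.30, with Uqcrb at 0.02, and the large and redox subunits one of 0.01. In complex V the medians were 0.45 for the small membrane subunits, 0.41 for the peripheral stalk, -0.02 for the catalytic head and -0.50 for subunit c. At an adjusted p under 0.05 edgeR then called 0 members higher, beside 0.765% of all genes, although 6 were higher at an unadjusted p under 0.05. It called 1 lower, Atp5g2 at -1.32 (adjusted p = 0.0418), beside 0.24% of all genes. At the threshold of the study 5 members were higher, beside 5.9% of all genes: Uqcrq at 0.97, Atp5l at 0.96, Atp5pb at 0.94, Cox4i1 at 0.78 and Cox6c at 0.76. Lower at that threshold were Atp5g2 and Cox8a at -0.77, beside 8.82% of all genes. The distances of complexes III, IV and V above complex II then differed between the genotypes by 0.13, -0.09 and 0.04, with the groups overlapping. Complex IV lay less far above complex III in every mutant than in every control, by -0.22, and so did complex V above complex III, by -0.09, while complex V above complex IV moved by 0.12 with overlap.

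Skeletal muscle markers were uneven within both groups. Of the 12 markers, 10 had a positive log2 change, with a median of 1.49, and none passed either threshold, with SEs from 1.47 (Myh4) to 2.06 (Myh1) on the log2 scale. Mutant 2, at 204 CPM of summed markers, was the lowest mutant for 31 members, mutant 1, at 8361 CPM, the highest for 22, and mutant 3, at 1314 CPM, the highest for 17. Among controls, control 2, at 3534 CPM, was the lowest for 38 members. Control 2 and mutant 1 were the libraries of each group with the most muscle signal. Without them, 21 members were higher at the threshold of the study, beside 10.8% of all genes, and Atp5g2 was lower. At the adjusted threshold 2 were called (Cox6c and Atp5l), beside 0.847% of all genes called higher, and the median was 0.77. The median of complex II was then 0.00 and that of complex V 0.77. The samples kept had marker sums of 10.6 and 36.1 CPM in the controls and 204 and 1314 CPM in the mutants. Muscle signal thus went with genotype in this fit, which cannot separate them, and the part of muscle was not tested.

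Other genes of the pathway were taken from lists. Of 8 tissue-specific forms of complex IV subunits and cytochrome c, 5 were in the table, none was called at the adjusted threshold by edgeR and 1 passed that of the study. Cox7a1, the form of subunit VIIa in heart and skeletal muscle, had 1.63, 12.5 and 4.39 CPM in the controls and 63.1, 11.4 and 18.8 CPM in the mutants. It was highest in mutant 1 and, among controls, in control 2, as the muscle markers were, and its log2 change was 2.32 (SE 0.89, adjusted p = 0.187). Cox6a2, the muscle form of subunit VIa, had 0.233, 15.4 and 0.347 CPM against 33, 4.27 and 11.4 CPM.

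Of 7 further subunits and regulators of these complexes, 6 were in the table, all had a positive log2 change, and 2 rose at the adjusted threshold. Ndufa4, a complex IV subunit once assigned to complex I, had 202, 108 and 194 CPM in the controls and 642, 429 and 876 CPM in the mutants, with a log2 change of 1.95 (SE 0.37, adjusted p = 0.0395). Atp5md, a small membrane subunit of complex V, had 97.8, 37.7 and 77.2 CPM against 304, 200 and 336 CPM, with a log2 change of 1.98 (SE 0.39, adjusted p = 0.0423). Both were without overlap.

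Assembly factors had a lower median log2 change than the subunits. Of 34, 33 were in the table, with a median of 0.50. At the threshold of the study 9 were higher, beside 10.9% of all genes, and 0 lower, beside 8.92%. Their transcripts were longer, with a median of 1391 bases against 745 for the members. The members of 1000 to 2000 bases had a median log2 change of 0.59. The 2 that rose at the adjusted threshold were Cox17, the copper chaperone of complex IV, at 1.64 (SE 0.36), and Coa6, which also serves copper delivery to complex IV, at 1.90 (SE 0.42), both with an adjusted p of 0.0464. After the correction for length and GC content the median of the list was -0.07.

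The median log2 change of 13 regulators of mitochondrial biogenesis was 0.04. Ppargc1b, a coactivator of mitochondrial genes, had 2.88, 4.78 and 3.55 CPM in the controls and 0 counts in all mutants. It was the 1 gene of this list called lower (adjusted p = 0.0464 by edgeR) and at least 5.71-fold lower against the floor of 3 counts in the shallowest mutant, 0.655 CPM. The 14 enzymes of the citric acid cycle had a median log2 change of -0.12, and Ogdh, the E1 subunit of the 2-oxoglutarate dehydrogenase, fell by 1.02 (SE 0.25, adjusted p = 0.0489). The 6 mitochondrially encoded genes of complexes III to V all rose, with a median log2 change of 3.15, which was 1.23 after the correction. Their messages summed to 5245, 4069 and 5092 CPM in the controls and 52334, 30367 and 45072 CPM in the mutants.

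Promoters were searched for the letters bound by factors known to drive nuclear respiratory genes. The windows, of 250 bases before to 50 bases after each start, came from RefSeq on GRCm38.p6 and covered 31 of the 39 members. The NRF1 motif, the 10 letters in capitals below, in which the fifth base (or the sixth, read from the other strand) may be any, was in 10 of 31 members (32.3%) and in 5.19% of 27025 genes. The ETS motif bound by GABP, CCGGAAGT on either strand, was in 4 members (12.9%) and in 4.31% of all genes. By complex, NRF1 letters were in 2 of 3 promoters of complex II, 1 of 5 of complex III, 1 of 8 of complex IV and 6 of 14 of complex V. The following 30-base windows, 5′ to 3′ on the strand of the gene with the NRF1 letters in capitals, are shown because genes that rose and genes that did not both held them: the members are Sdha (chr13:74350319-74350348, minus strand), Uqcrc1 (chr9:108936668-108936697, plus strand), Cox6a1 (chr5:115349101-115349130, minus strand), Atp5g2 (chr15:102671070-102671099, minus strand), Atp5g3 (chr2:73911295-73911324, minus strand) and Atp5k (chr5:108434430-108434459, minus strand).
Sdha: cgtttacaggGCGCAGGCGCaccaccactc
Uqcrc1: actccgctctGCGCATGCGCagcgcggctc
Cox6a1: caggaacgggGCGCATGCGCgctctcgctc
Atp5g2: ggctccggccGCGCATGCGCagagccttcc
Atp5g3: gagccgcaccGCGCTTGCGCgcccagcccc
Atp5k: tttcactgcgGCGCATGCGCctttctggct

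The 10 members with NRF1 letters had log2 changes from -0.59 (Atp5g2) to 1.87 (Atp5k), with a median of 0.83, and 2 of them were called at the adjusted threshold. The 21 members without them ran from -0.19 to 2.38, with a median of 1.14 and 4 called. The Atp5g2 and Atp5k windows hold the same 10 letters, and these genes had the lowest and the fourth highest log2 change of the 39. The Atp5g2 window belongs to a RefSeq start inside the gene as GENCODE draws it, which begins at chr15:102672352 on the minus strand. Use of these starts and binding of NRF1 were not tested. After the correction for length and GC content the medians were 0.00 with the letters and 0.16 without them.

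Some members cannot be counted apart from their neighbours with certainty. Several overlap a gene on the opposite strand in GENCODE, among them Cox4i1 with Emc8, Cox6c with Vps13b, Atp5j with Gabpa and Atp5pb with Wdr77, and Atp5o overlaps Donson on the same strand. Whether the counting used strand is not given in the sources used here. Gene columns named as pseudogenes of 4 members also held counts, and adding them to their parent genes raised Cox5b to 1.33 and Atp5pb to 1.41, both then with an adjusted p of 0.0463, so that 10 members were called.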

How the data were processed

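RNA from 3 control and 3 mutant incisor samples had been sequenced as single reads, and the authors aligned the reads to mm10 (GRCm38) in Partek Flow. The submitters' processing notes name TopHat2 2.0.8, and the counting model and annotation are not given in the sources used here. The authors deposited estimated counts per gene, not normalized, in which a part of the values is not whole, so reads shared between genes may have been split. A table of the authors' own comparison (p-values and fold scores) was not used.

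Counts were rounded to whole numbers and analysed with edgeR 4.0.16 in R 4.3.3, scaled by the upper quartile as in the study. Genes passed filterByExpr at its default minimum of 10 counts (15 in total), the model held genotype alone, and two-sided quasi-likelihood p-values were adjusted by Benjamini-Hochberg over all genes tested. The standard error is the size of the log2 change over the square root of F. DESeq2 1.42.0 and limma voom (limma 3.58.1) served as alternatives. For the length and GC correction, a loess trend (span 0.3) was fitted in each sample on protein-coding genes other than the members averaging 50 counts or more, and entered as a centred offset. GENCODE M21 gave transcript length and GC, and in it 38 members matched by symbol and Atp5f1 through its RefSeq synonym Atp5pb. Scripts were tested on simulated data.

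Totals were 31060222 to 32712448 counts in controls and 5276557 to 11819576 in mutants, and 3 counts correspond to 0.0825 to 0.655 CPM, which covers counting error only. Nothing in the labels names the animals, so p-values measure the spread between these samples. Groups follow the labels. All members may be named, and values in every sample are given for members with an adjusted p under 0.05, the highest and lowest change of each complex, the 3 genes for subunit c and cytochrome c. From each other list, up to 4 genes past the adjusted threshold, or the 2 with the smallest p, are eligible. The members and lists were chosen with earlier results of these data known. Alternatives were other scalings (TMM, total counts, DESeq2 size factors), tools, filters, a test against a 1.5-fold change, thinned control counts, protein-coding genes only, pseudogene counts added, the replicate number as a block, and each sample left out. Leaving out control 2 and mutant 1 together was chosen after seeing the data.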

Additional observations from a re-analysis of the deposited data

Results flagged for a closer look

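Gene columns named as pseudogenes of members lie outside the comparisons, and a pair of them held more signal in the mutants than in any control. Cox5b-ps had 5.48, 3.74 and 5.81 CPM in the controls and 72.9, 45.1 and 79.1 CPM in the mutants, so that its lowest mutant, at 45.1 CPM, was above its highest control. Its log2 change was 3.71 (SE 0.37, adjusted p = 0.00287 by edgeR), more than that of Cox5b itself. GENCODE lists this gene as protein-coding despite its name. Atp5pb-ps, a processed pseudogene, had 2.71, 1.29 and 2.95 CPM in the controls and 55.4, 32.1 and 47.1 CPM in the mutants, with its lowest mutant at 32.1 CPM. Its log2 change was 4.27 (SE 0.48, adjusted p = 0.00478 by edgeR). Both columns are named after a parent gene with which they may share reads, and how such reads were assigned was not tested.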

How the results depend on the processing

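Beside 8 members called at the adjusted threshold, the count was 22 with DESeq2, 19 with limma voom, 3 without a filter on low counts, 3 with protein-coding genes only, 3 in the test against a 1.5-fold change, 2 without control 2 and mutant 1, and 1 (Atp5g2, lower) after the length and GC correction. It was 6 to 10 under the other alternatives with all samples, apart from the block given last, and 0 to 3 when single samples were left out. The share of all genes called higher fell too, from 3.72% to 1.1% without the filter and 0.369% with protein-coding genes only. It was 1.42% in the test against a 1.5-fold change, 0.847% without control 2 and mutant 1, and 0.765% after the length and GC correction. The 25 members past the threshold of the study became 7 (5 higher, 2 lower) after this correction and 21 to 26 under the other alternatives, with 22 higher and 2 lower (Sdha and Atp5g2) under scaling by total counts, which moved the median of all genes tested from -0.04 to -0.30. All 8 calls were kept with the other scalings and tools.

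After the length and GC correction the medians were 0.14 for all members, 0.12 for complex III, -0.093 for complex IV and 0.26 for complex V, and the median of complex V was 0.77 without control 2 and mutant 1 and 0.92 to 1.38 with single samples left out. Single members turned sign under that correction: Atp5c1 (-0.019), Atp5g1 (-0.50), Atp5h (-0.25), Cox5a (-0.37), Cox6a1 (-0.48), Cox6b1 (-0.13), Cox7b (-0.061), Cox7c (-0.32), Uqcrc1 (0.012) and Uqcrfs1 (-0.091). Without control 2 and mutant 1 they were Cox6a1 (-0.077), Cyc1 (-0.073) and Sdhc (-0.58), and with scaling by total counts Cyc1 (-0.12) and Sdhc (-0.087). Cox8a was at 0.029 with limma voom and 0.0045 with protein-coding genes only. With single samples left out Cox8a ran from -0.25 to 0.14, Cyc1 from -0.085 to 0.26, Cox6a1 from 0.024 to 0.43 and Sdhc from -0.35 to 0.39. Of 507 values of members under alternatives with all samples, 430 kept their direction and side of the adjusted threshold. Among the alternatives, Fgfr1 passed the adjusted threshold with DESeq2 alone (log2 change -1.41), and its change stayed negative in all of them. Correcting for length and GC content moved Fgfr1 to -0.87 (adjusted p = 0.225 by edgeR), while scaling by total counts moved it to -1.64. Leaving out single samples gave -1.63 to -0.99 for this gene, with -0.99 in the absence of control 2. Dropping control 2 and mutant 1 together gave -0.74. Causes of these moves were not tested.

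The replicate numbers do not pair the samples by the labels, and deviations of same-numbered samples correlated at 0.0472, 0.00937 and 0.0548, although every sample correlated best with its own number. With the replicate number as a block 15 members were called higher, beside 2.73% of all genes, and Cox8a was at 0.018. The depth of mutant 1, 5276557 counts, limits genes of low level more than the members, and with control counts thinned to 9484797 in total the same 25 members were past the threshold of the study.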

Other observations

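Markers of the cell types in the dissected tissue gave no call for odontoblast (5 genes), ameloblast (6), dental mesenchyme (6) or macrophage (5) lists at the adjusted threshold with edgeR, and at an unadjusted p under 0.05 with 1.5-fold 1 of these genes passed. The 6 ameloblast markers had a median log2 change of -0.86 (-1.21 after the length and GC correction), and 5 were negative. Amelx, the enamel protein amelogenin, had 50951, 60146 and 66940 CPM in the controls and 18669, 15184 and 42259 CPM in the mutants, with every mutant below every control (log2 change -1.23, SE 0.67, adjusted p = 0.370). The gene that passed was Amtn, an enamel surface protein of late ameloblasts, with 1078, 1141 and 1188 CPM in the controls and 1428, 2006 and 2971 CPM in the mutants (log2 change 0.91, SE 0.35, adjusted p = 0.190). Ambn, the enamel matrix protein ameloblastin, had 31373, 31167 and 46653 CPM in the controls and 12680, 13712 and 23409 CPM in the mutants, with every mutant below every control (log2 change -1.13, SE 0.57, adjusted p = 0.325). Of the erythroid genes, Hba-a1, an alpha globin, fell from 203, 174 and 110 CPM to 18.3, 45.6 and 53.7 CPM (log2 change -2.04, SE 0.42, adjusted p = 0.0460 by edgeR). The other 4 erythroid genes had positive log2 changes, and 2 of them were higher at the threshold of the study.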
